A study of Mus musculus with 8 samples.

Results

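The genes described here are 42 cell cycle genes, read in sorted dermal fibroblasts of old mouse back skin. They run from the G1/S cyclins and their transcription factors through the DNA replication factors of S phase to the kinases, kinetochore proteins and motors of mitosis. Each gene was represented by 1 array probe set that names that gene alone, the one with the highest mean over the 8 samples. All 42 were measured, out of 17097 genes in all. No filter on low values was applied, so every member entered the test.

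The samples were Pdgfra-positive, Cd34-positive fibroblasts sorted by flow cytometry, without cells carrying CD45, CD117, CD24, CD31 or EpCam, and came from dorsal skin of mice. The labels give an age of 12 months for the animals that were put on treatment. GW9662 blocks PPARG, a nuclear receptor best known for its role in fat cells. It was applied to the skin of 4 animals at 150 nmol in 300 µl acetone, 3 times a week for 6 months, and the 4 vehicle animals received acetone alone on the same schedule. RNA of 5000 cells was amplified over 21 cycles and each sample was measured on 1 array. The labels give 1 age for all animals and name no strain, sex or genotype, and animals were killed in pairs, 1 per group on a given day; samples sharing a number are read as such a pair.

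The cell cycle is run by cyclin-dependent kinases. In a resting cell, pocket proteins bound to E2F factors and the DREAM complex hold its genes down. Mitogens induce cyclin D1, the pocket proteins are phosphorylated, and E2F1 and its relatives switch on cyclin E, the MCM helicase, PCNA and the enzymes of nucleotide synthesis. Later, MYBL2 and FOXM1 act with the MuvB complex and NF-Y on the genes of G2 and mitosis, whose promoters often hold CCAAT boxes and a CHR element. Dermal fibroblasts of adult skin are known to divide rarely.

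The promoters of 5 members are shown because they hold examples of these elements in S phase and mitotic genes. Each line gives the 250 bases before the annotated start, 5′ to 3′ on the strand of the gene, from RefSeq on GRCm38.p6. Capitals mark the NF-Y box CCAAT, the CHR letters TTTGAA or TTTAAA, and the E2F letters TTTCGCGC or TTTGGCGC, on either strand. Cdk1, the kinase of mitotic entry, lies at chr10:69352913-69353162 on the minus strand. Mki67, the proliferation marker, lies at chr7:135716380-135716629, minus. Birc5, survivin, a subunit of the chromosomal passenger complex, lies at chr11:117848987-117849236, plus. Mcm5, a subunit of the replicative helicase, lies at chr8:75109259-75109508, plus. Pcna, the sliding clamp of DNA polymerase, lies at chr2:132253181-132253430, minus.
Cdk1: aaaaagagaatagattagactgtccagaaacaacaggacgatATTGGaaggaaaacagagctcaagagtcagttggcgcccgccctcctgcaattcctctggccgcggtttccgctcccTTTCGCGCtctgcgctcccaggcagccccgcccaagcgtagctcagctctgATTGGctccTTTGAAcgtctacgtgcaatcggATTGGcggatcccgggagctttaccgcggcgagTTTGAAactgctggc
Mki67: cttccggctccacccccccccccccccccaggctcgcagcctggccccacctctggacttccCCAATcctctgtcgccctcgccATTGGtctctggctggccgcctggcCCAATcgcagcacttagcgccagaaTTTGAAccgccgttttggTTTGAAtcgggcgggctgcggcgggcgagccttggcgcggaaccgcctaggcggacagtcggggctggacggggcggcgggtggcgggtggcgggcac
Birc5: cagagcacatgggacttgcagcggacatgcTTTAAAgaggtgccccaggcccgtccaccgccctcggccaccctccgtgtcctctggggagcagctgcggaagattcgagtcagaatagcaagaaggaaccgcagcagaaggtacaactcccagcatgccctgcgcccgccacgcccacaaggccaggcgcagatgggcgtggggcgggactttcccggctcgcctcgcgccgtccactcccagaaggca
Mcm5: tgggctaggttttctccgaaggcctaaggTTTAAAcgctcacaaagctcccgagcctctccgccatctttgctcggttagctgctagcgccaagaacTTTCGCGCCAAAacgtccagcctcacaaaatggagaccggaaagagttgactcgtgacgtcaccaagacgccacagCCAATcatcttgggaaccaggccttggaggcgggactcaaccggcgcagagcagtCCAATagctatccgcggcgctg
Pcna: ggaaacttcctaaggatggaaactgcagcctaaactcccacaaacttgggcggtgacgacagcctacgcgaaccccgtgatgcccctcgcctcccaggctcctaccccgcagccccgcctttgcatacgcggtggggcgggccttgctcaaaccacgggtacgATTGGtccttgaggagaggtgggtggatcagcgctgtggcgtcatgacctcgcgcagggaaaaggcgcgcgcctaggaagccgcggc
Cdk1 held 3 CCAAT matches, 2 CHR matches and 1 E2F match. Mki67 held 3 CCAAT and 2 CHR matches, and Mcm5 held 2 CCAAT matches, 1 CHR match and 2 overlapping E2F matches. In Pcna only 1 CCAAT match was found, and in Birc5 only 1 CHR match.

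Over the 34 members with a promoter in the table, all but Ccnd1, Ccne2, Foxm1, Mcm4, Ccna2, Aurkb, Kif20a and Tpx2, there were 36 promoters. Of these, 29 held CCAAT (80.6%), against 33.8% of all 32851 promoters of the same length. The CHR letters were found in 15 (41.7%), against 25.2%. They were in 10 of 21 promoters of mitotic members and in 2 of 10 promoters of S phase members. The E2F letters were found in 3 (8.33%), against 0.654%: Mcm5, Mcm6 and Cdk1. These counts describe letters and not occupied sites.

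Signals of most members were low. An array signal depends on the probes as well as on the transcript, so the values of different genes are not amounts of RNA. No detection call was part of the values used. As a guide to dim signal, 46 genes not expected in skin, such as those of sperm, liver or pancreas, had a median of 4.13 and a 90th percentile of 5.65 on the log2 scale. Of the 42 members, 13 lay above 5.65 and 29 did not, while 44.1% of all genes lay above it. The 13 were 4 of the 6 G1/S members, 5 of the 10 S phase members and 4 of the 24 mitotic members. Among mitotic members these were Ube2c, Prc1, Kif20a and Cdc20. S phase members had a median signal of 5.81 (range 4.23 to 9.38) and mitotic members one of 4.57 (range 3.37 to 6.37). Only Ccnd1, Pcna, Tyms and E2f1 exceeded 6.93, the highest of the 46. These levels are those of the brightest set of each gene. The other sets of Tyms read 3.47 to 4.18, the second of E2f1 5.155, and those of Ccnd1 7.26 and 5.86, while Pcna had 1 set. Of the rest of the 13, the second sets of Mcm3 (4.41) and Prc1 (4.475) lay under 5.65. Those of Mcm7 (5.73) and Rrm1 (6.30) lay above it. Foxm1 had further sets at 5.75, 3.785 and 3.06, and Ccne1, Ube2c, Kif20a and Cdc20 had 1 set each. The count above 5.65 thus depends on the choice of the brightest set. In a bulk sample, fewer cycling cells and less of the members' transcripts per cell cannot be told apart.

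**Figure D1:**
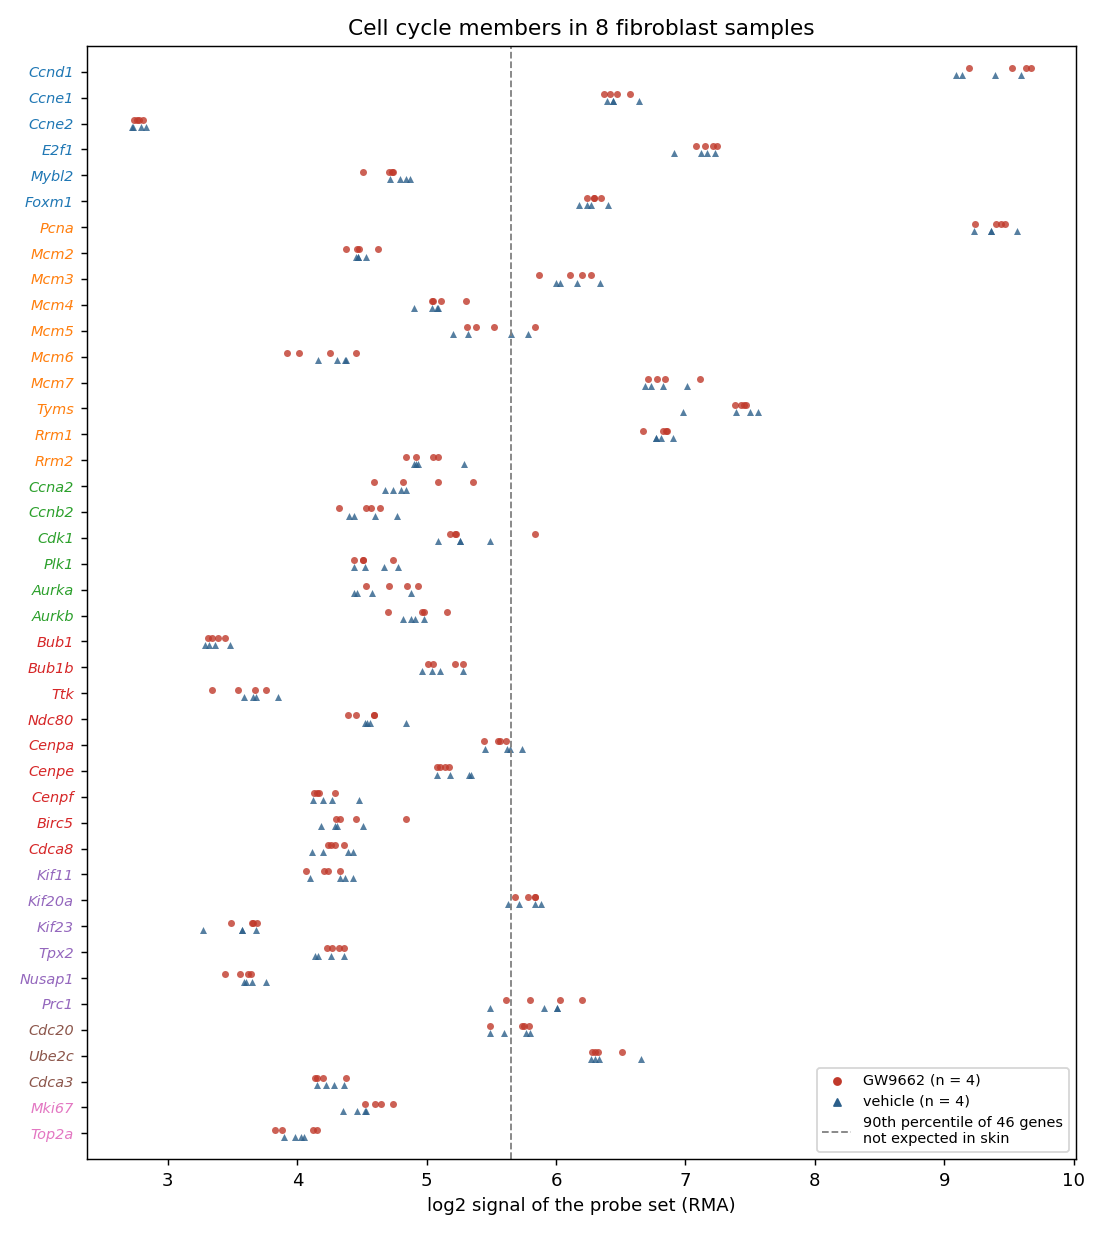
Log2 signal of each member (1 row per gene, ordered by role) in the 4 GW9662 samples (circles) and the 4 vehicle samples (triangles); gene names are coloured by role and the dashed line is the 90th percentile of 46 genes not expected in skin, 5.65. The groups overlap in every row, and 29 of 42 genes have a mean at or left of the line.

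The samples were checked before the members were compared. Sample medians over all probe sets lay between 4.63 and 4.69. Vehicle 4 stood apart from the other 7 on the first principal component (22.2 against -10.4 to 5.49). Cd34, used for the sort, had a mean signal of 10.7, whereas Pdgfra, also used for it, read only 4.91. The fibroblast genes Col1a1 and Dcn read 12.4 and 12.6. Among genes of the markers sorted against, Ptprc (CD45) read 2.89, Kit (CD117) 3.10, Epcam 3.92 and Pecam1 (CD31) 4.93, so Pecam1 and Pdgfra had like signals. The gene of CD24, also sorted against, was not on the marker lists and is not given here. Some other genes on the marker lists of cells sorted against read higher. These were Kdr (7.84) and Tek (6.03) of endothelial cells, Cd68 (8.22), Cd79a (7.004) and Csf1r (6.45) of immune cells, and Krt10 (6.94), Trp63 (6.50) and Krt5 (5.78) of keratinocytes. Most genes on these lists were dimmer. The median gene read 3.93 for 8 endothelial, 4.48 for 12 immune and 4.53 for 11 keratinocyte and hair follicle markers. The part of the brighter genes in the results was not tested. With 4 arrays per group, the number of animals limits the precision.

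No member passed the test between GW9662 and vehicle. In limma with Benjamini-Hochberg adjustment over all 17097 genes, 0 of the 42 members had an adjusted p under 0.05, beside 0 of all genes (0%), and the smallest adjusted p of a member was 0.997. At an unadjusted p under 0.05 there was 1 member, Mki67, which was higher, beside 3.38% of all genes (1.57% higher and 1.81% lower). With the pair as a block there were 0. The values were higher after GW9662 in 25 members and lower in 17, where 47% of all genes were higher and 51.8% lower. The median log2 fold change of the members was 0.0063, against -0.005 over all genes. Their range was -0.15 to 0.20, and the 95% intervals reached at most 0.51, or 1.43-fold, for Ccna2 and at lowest -0.40, or 0.759-fold, for Mcm6. The groups overlapped in all 42, and did not overlap in 1.75% of all genes. Without GW9662 3, 16 members were higher and the median was -0.02. Without vehicle 4, Mki67 and Aurka had an unadjusted p under 0.05 in limma and the median was 0.0017. Shares of all genes under 0.05 with the block and without vehicle 4 are not given here.

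**Figure D2:**
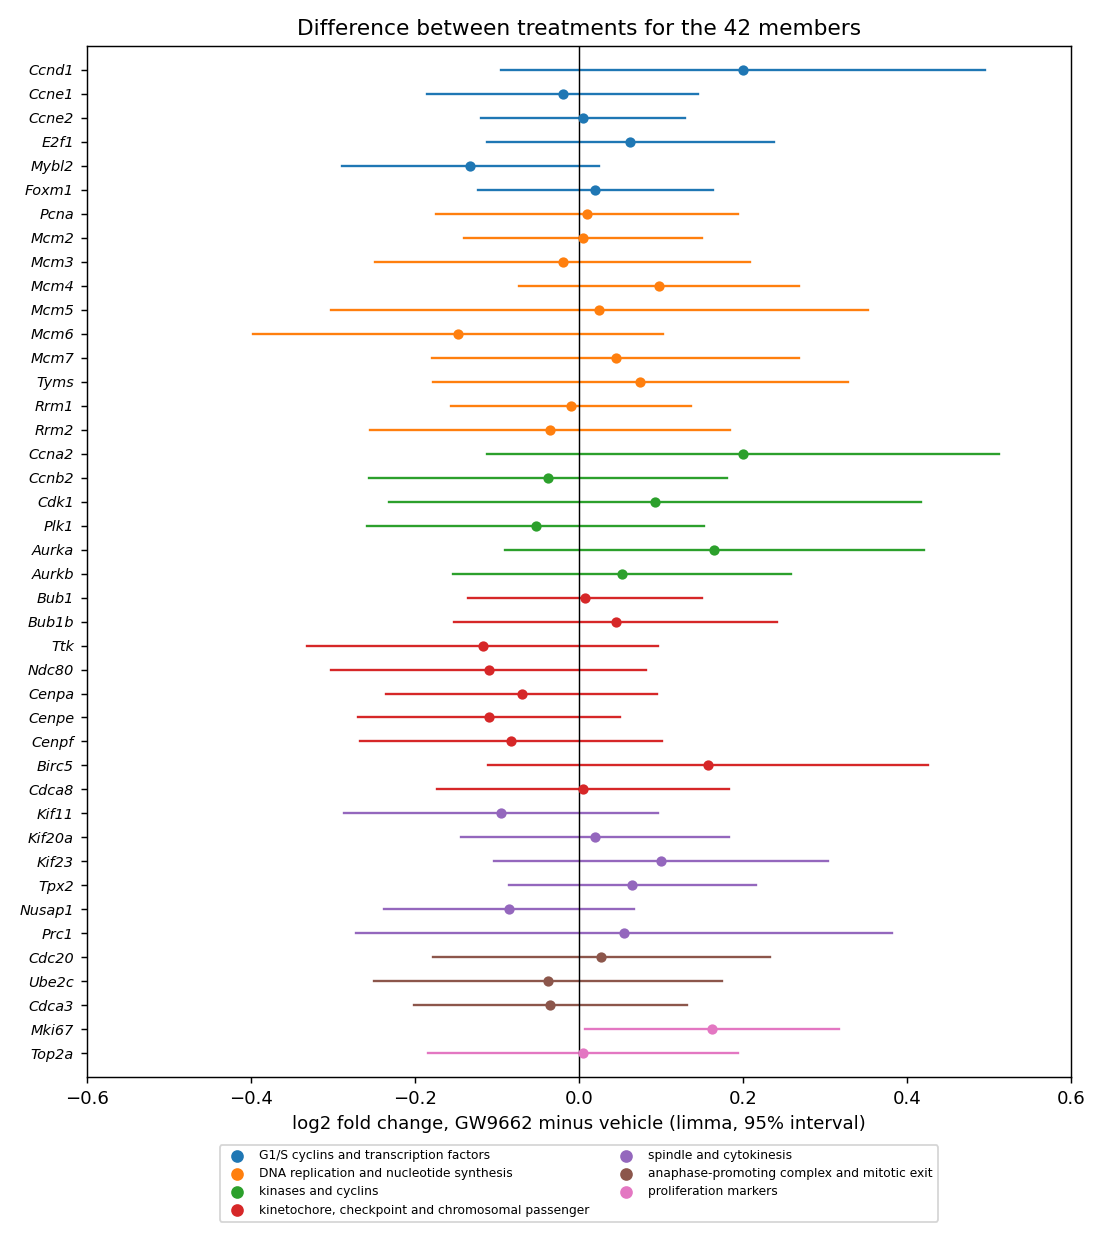
Log2 fold change of each member, GW9662 minus vehicle, with its 95% interval from limma (n = 4 per group), coloured by role. The interval holds 0 in 41 of 42 genes; the exception is Mki67, from 0.01 to 0.32.

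Among the proliferation markers, Mki67 read 4.65, 4.60, 4.74 and 4.52 in GW9662 samples 1 to 4 and 4.35, 4.46, 4.53 and 4.52 in vehicle samples 1 to 4. The means were 4.63 ± 0.09 and 4.46 ± 0.08 (SD, n = 4 each), a log2 fold change of 0.16 ± 0.07 (SE), which is 1.12-fold. It was higher in 3 pairs and equal in the other one. GW9662 4 lay level with vehicle 4 and just under vehicle 3, so the groups met at their edges. Limma gave an unadjusted p of 0.0415 and an adjusted p of 0.997, and with the pair as a block the unadjusted p was 0.0539. All 8 values lay under the dim guide of 5.65. Top2a, the topoisomerase that untangles DNA, read 4.15, 3.83, 3.88 and 4.12 after GW9662 and 4.05, 4.03, 3.90 and 3.98 in vehicle. Its log2 fold change was 0.005 ± 0.09 (SE). It was highest in GW9662 1 and lowest in GW9662 2, while Mki67 was highest in GW9662 3 and lowest in vehicle 1.

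The G1/S members were the brightest role group, with a median signal of 6.38. Ccnd1, cyclin D1, the mitogen-induced partner of CDK4 and CDK6, read 9.63, 9.52, 9.67 and 9.19 after GW9662 and 9.39, 9.59, 9.14 and 9.09 in vehicle. Its high values were in GW9662 1 to 3 and vehicle 2, and its low values in GW9662 4, vehicle 3 and vehicle 4. The log2 fold change was 0.20 ± 0.13 (SE), with an interval from -0.09 to 0.50. Its other probe sets gave 0.29 and 0.10, and both were also low in vehicle 3 and vehicle 4. Without GW9662 4 the value was 0.30, and without vehicle 2 it was 0.30.

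E2f1, the activating factor of S phase genes, read 7.15, 7.08, 7.24 and 7.21 after GW9662 and 7.23, 7.12, 7.17 and 6.91 in vehicle. Vehicle 4 was the lowest, and the other samples lay between 7.08 and 7.24. The difference was 0.06 ± 0.08 (SE), and without vehicle 4 it was -0.0033. Foxm1, the factor of G2 and mitotic genes, read 6.29, 6.35, 6.29 and 6.24 after GW9662 and 6.40, 6.24, 6.18 and 6.27 in vehicle. It was among the steadiest members, with an SD over the 8 samples of 0.07.

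Mybl2, B-Myb, the partner of the MuvB complex, read 4.71, 4.73, 4.74 and 4.51 after GW9662 and 4.87, 4.72, 4.84 and 4.79 in vehicle. It was lower in 3 of 4 pairs, at -0.13 ± 0.07 (SE, unadjusted p = 0.0894 and adjusted p = 0.997 in limma). Its second probe set gave 0.05, on the other side. Cyclin E1 (Ccne1), the cyclin of S phase entry, differed by -0.02, and cyclin E2 (Ccne2), whose probe set read 2.77 and was the dimmest of all members, by 0.005.

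Genes of DNA replication and nucleotide synthesis differed by -0.15 to 0.10, with a median of 0.0075, and 6 of 10 were higher. Pcna read 9.40, 9.24, 9.44 and 9.47 after GW9662 and 9.36, 9.23, 9.56 and 9.36 in vehicle. The difference was 0.01 ± 0.08 (SE), with an interval from -0.17 to 0.19. It was lowest in both samples numbered 2. Tyms, thymidylate synthase, read 7.45, 7.43, 7.47 and 7.38 after GW9662 and 7.50, 7.56, 7.39 and 6.98 in vehicle. The GW9662 samples lay within 0.09 of each other, while vehicle 4 lay far under all others, and the difference of 0.07 turned to -0.05 without it.

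The MCM genes encode the helicase loaded at replication origins. Mcm2 read 4.48, 4.46, 4.62 and 4.38 after GW9662 and 4.47, 4.47, 4.53 and 4.45 in vehicle, a difference of 0.005 ± 0.07 (SE). Mcm5 read 5.31, 5.38, 5.84 and 5.52 after GW9662 and 5.20, 5.65, 5.78 and 5.32 in vehicle. Both samples numbered 3 were the highest of their group and both numbered 1 the lowest. Mcm6 read 4.25, 4.01, 4.45 and 3.92 after GW9662 and 4.37, 4.16, 4.31 and 4.38 in vehicle. It had the lowest fold change of the members, -0.15 ± 0.11 (SE), or -0.24 without GW9662 3, and was the single helicase gene with a negative value under -0.05. Mcm4 and Mcm7 stood at 0.10 and 0.05 and Mcm3 at -0.02. The subunits of ribonucleotide reductase, Rrm1 and Rrm2, were at -0.01 and -0.04.

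The mitotic kinases and cyclins held the widest spread between samples. Cdk1 read 5.18, 5.22, 5.84 and 5.23 after GW9662 and 5.49, 5.09, 5.26 and 5.26 in vehicle. GW9662 3 was the highest of all 8 by 0.35, and the other GW9662 samples lay among the vehicle samples. The difference was 0.09 ± 0.15 (SE), and -0.07 without GW9662 3. Ccna2, cyclin A2, the cyclin of S phase and G2, was counted here and in the mitotic mean as a mitotic member. It read 5.09, 4.82, 5.36 and 4.59 after GW9662 and 4.74, 4.68, 4.84 and 4.80 in vehicle. GW9662 samples held both the highest and the lowest value of this gene. Its difference was 0.20 ± 0.14 (SE), 0.07 without GW9662 3 and 0.33 without GW9662 4, and its second probe set gave 0.03.

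Aurka, the spindle pole kinase, read 4.71, 4.53, 4.85 and 4.93 after GW9662 and 4.58, 4.44, 4.46 and 4.88 in vehicle. It was higher in 4 of 4 pairs, at 0.16 ± 0.11 (SE, unadjusted p = 0.181 in limma, and 0.0643 with the pair as a block), and at 0.26 without vehicle 4, the highest vehicle sample. Birc5 was the other member higher in all 4 pairs, where 5.46% of all genes were, and no member was lower in all 4, where 5.93% of all genes were. Ccnb2, cyclin B2, the partner of CDK1 in mitosis, read 4.57, 4.32, 4.53 and 4.64 after GW9662 and 4.60, 4.40, 4.77 and 4.44 in vehicle, a difference of -0.04 ± 0.10. Aurkb and Plk1, kinases of chromosome alignment and of mitotic entry, were at 0.05 and -0.05.

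Kinetochore, checkpoint and passenger genes had 5 of 9 members lower and a median of -0.07. Cenpe, the kinetochore motor, read 5.10, 5.08, 5.14 and 5.17 after GW9662 and 5.18, 5.08, 5.34 and 5.33 in vehicle. Vehicle 3 and vehicle 4 were the high samples, and the difference was -0.11 ± 0.07 (SE). Birc5 read 4.45, 4.33, 4.84 and 4.30 after GW9662 and 4.31, 4.18, 4.51 and 4.29 in vehicle. Both samples numbered 3 were the highest of their group, and the difference was 0.16 ± 0.12 (SE, unadjusted p = 0.220 in limma, and 0.0625 with the pair as a block). Without GW9662 3 it was 0.04. The checkpoint kinases Bub1, Bub1b and Ttk were at 0.0075, 0.05 and -0.12. The microtubule-binding Ndc80, the centromeric histone Cenpa and Cenpf, a kinetochore protein, were at -0.11, -0.07 and -0.08, and the passenger subunit Cdca8 was at 0.005.

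Spindle and cytokinesis genes had 4 of 6 members higher, with a median of 0.04, which was -0.02 without GW9662 3. Prc1, the bundler of midzone microtubules, read 6.03, 5.80, 6.20 and 5.61 after GW9662 and 6.01, 5.49, 5.91 and 6.01 in vehicle. It ranged over 0.71, and the lowest value was in vehicle 2, followed by GW9662 4. The motors Kif11, Kif20a and Kif23 were at -0.10, 0.02 and 0.10, Tpx2, an activator of Aurora A, at 0.07, and the spindle protein Nusap1 at -0.08. The anaphase-promoting complex genes Cdc20 and Ube2c were at 0.03 and -0.04, and Cdca3 at -0.04.

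GW9662 3 was the sample in which most members were highest. It held the highest value, with no tie, in 14 of 42 members (33.3%), while it did so in 10.6% of all genes, and the lowest in 0 of 42, against 8.92%. By this count 4 were S phase and 7 mitotic members. Vehicle 4 followed with 8 members (19%), beside 20.7% of all genes. Among 127 other measured cell cycle genes, described below, GW9662 3 was highest in 21 (16.5%) and vehicle 4 in 26 (20.5%). The place of GW9662 3 among the members was seen in the values and then counted, with no test. The mean over all 42 members was 5.34 in GW9662 3, and 5.16 to 5.23 in the other 7 samples. By the means of the lists of other cell cycle genes, GW9662 3 was highest for the CDK inhibitors (6.255). It was also highest for spindle, kinetochore, condensin and cytokinesis genes (4.82, with vehicle 4 at 4.81). Its rank from the top was 2 for G1 cyclins and kinases, 3 for replication genes and 6 for the E2F, pocket protein and DREAM genes. GW9662 3 was not the highest of the 8 in any of the 10 lists of fibroblast and other cell type markers. It read 4.80 for 12 immune markers (4.80 to 4.86 over the 8 samples), 4.66 for 11 keratinocyte and hair follicle markers (4.66 to 4.74) and 4.72 for 8 endothelial markers (4.41 to 4.84).

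**Figure D3:**
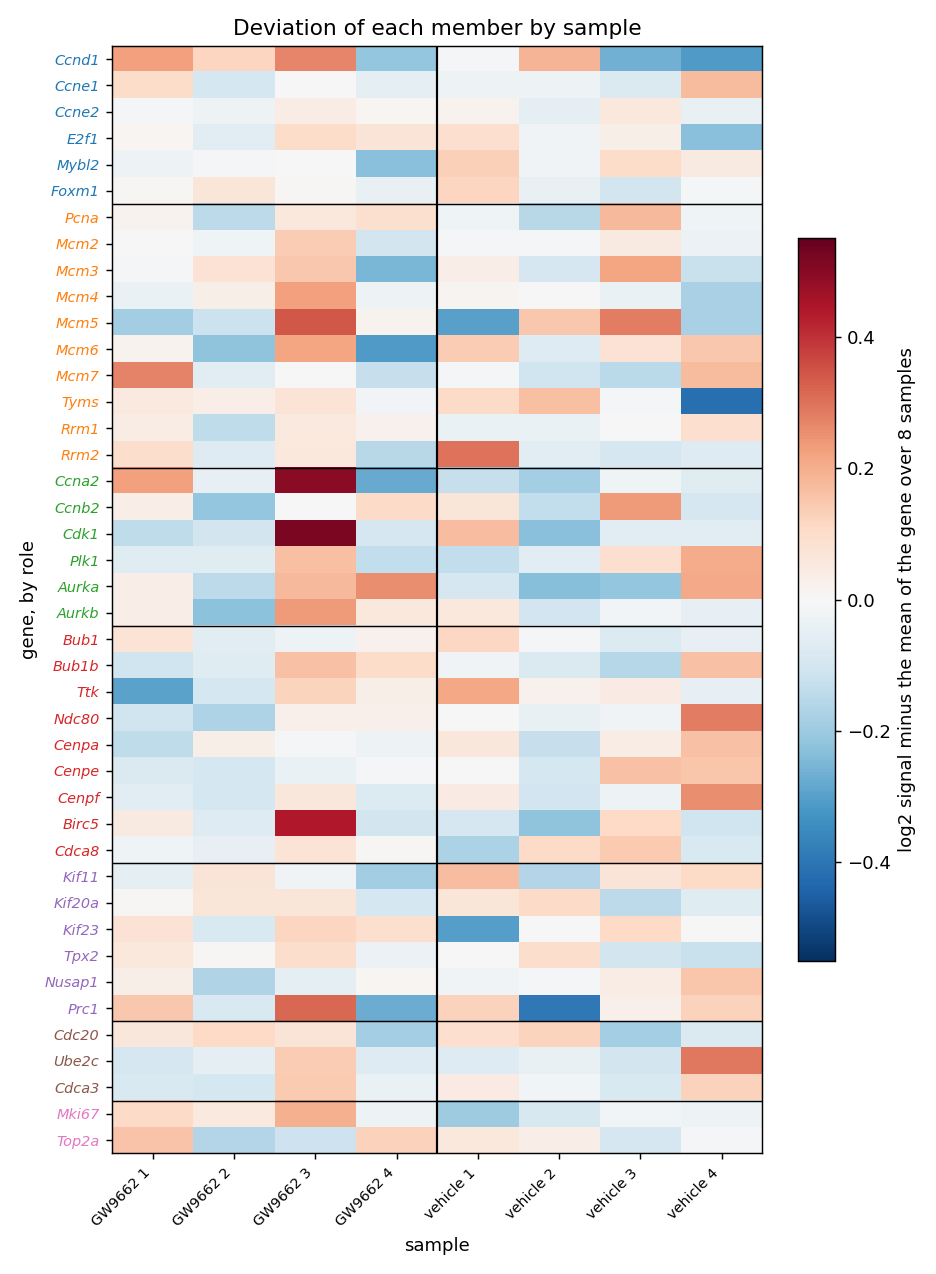
Deviation of the log2 signal of each member (rows, ordered by role, with lines between roles) from its mean over the 8 samples (columns, GW9662 left and vehicle right of the vertical line), red for higher and blue for lower. GW9662 3 is the reddest column, led by Cdk1, Ccna2, Birc5, Mcm5 and Prc1, and in no row does it hold the lowest value alone.

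Further probe sets of the members, which the choice of 1 set per gene had left aside, gave readings of the same RNA. They come from the same genes and arrays and are not independent of the count above. GW9662 3 was highest alone in 12 of these 35 sets, beside 10.6% of all genes by their representing sets. The share over all sets left aside is not given here. High values in GW9662 3 stood out most in Cenpf. In the set with the lowest mean of this gene's 3, GW9662 3 read 4.21 and the other 7 samples 3.37 to 3.61. In the set that represented the gene, vehicle 4 was highest at 4.48. Of the 26 members with more than 1 set, 11 had all sets on 1 side of 0 between treatments and 15 did not. Of these 15, Cenpa and Nusap1 had 1 set under 0 and 1 at 0, and the others had sets on both sides. Ttk stood at -0.12 in 1 set and at 0.19 in the other.

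S phase and mitotic members varied together over the samples to a modest degree. The S phase mean read 6.11, 6.02, 6.21 and 6.00 in GW9662 samples 1 to 4 and 6.10, 6.06, 6.14 and 6.02 in vehicle. The mitotic mean read 4.69, 4.63, 4.84 and 4.67 in GW9662 and 4.71, 4.63, 4.70 and 4.76 in vehicle. GW9662 3 was highest in both, vehicle 4 was second highest in the mitotic mean but among the lowest in the S phase mean, and the treatments did not separate in either. Pearson's r of the 2 means over the 8 samples was 0.65 and Spearman's rho 0.55, given as a description without a p, since the samples share their normalization and, in pairs, their day. Without GW9662 3 it was 0.17. Without the 2 samples farthest from the median of the S phase mean, GW9662 3 and GW9662 4, it was 0.09. Leaving out the extremes of 1 mean narrows its range, which by itself can lower r, so no conclusion is drawn from that value. Without GW9662 4 alone it was 0.64. Without vehicle 4 it was 0.86, and without both GW9662 3 and vehicle 4 it was 0.68. With probe sets averaged per gene it was 0.89, and among the brighter genes 0.26. The value thus ran from 0.09 to 0.89 with the samples and genes used.

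**Figure D4:**
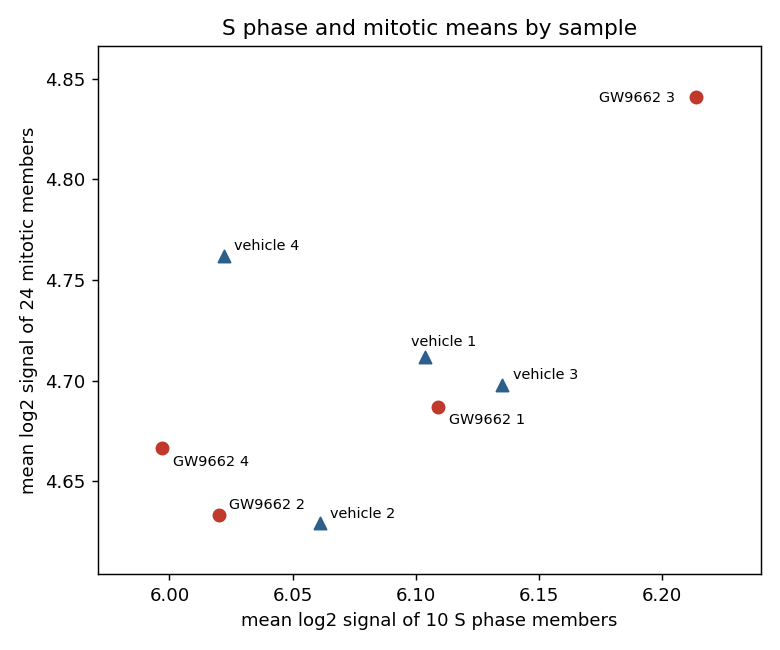
Mean log2 signal of the 10 S phase members (x) against that of the 24 mitotic members (y) in each sample; circles are GW9662 and triangles vehicle, and neither axis starts at 0. GW9662 3 lies alone at the upper right, at 6.21 and 4.84, and the treatments are mixed.

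The median pairwise r over the 8 samples was 0.25 among S phase members (45 pairs), 0.19 among mitotic members (276 pairs) and 0.18 between them (240 pairs), against 0.006 over all pairs of the 17097 genes. An r over 0.5 was found in 22.2%, 20.3% and 19.6% of these pairs and in 12.1% of all pairs. Without GW9662 3 the medians were 0.17, 0.08 and 0.07, and the shares 13.3%, 18.5% and 15%, beside 14.5% of all pairs. The other 127 measured genes of the pathway had a median pairwise r of 0.02.

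Which members followed each other depended in part on GW9662 3. With Cdk1, Birc5 (r = 0.80), Aurkb (0.77), Mcm4 (0.73), Mcm2 (0.72) and Prc1 (0.71) had the highest correlations, over 8 samples. For Cdk1 and Birc5 it was 0.16 without GW9662 3. Other pairs kept theirs without that sample, such as Kif20a and Cdc20 (0.97 with and without it), Ccnd1 and Tpx2 (0.95 and 0.94) and Mcm2 and Mcm3 (0.80 and 0.89). These are the upper end of 861 pairs. Mki67 and Top2a correlated with Cdk1 at 0.36 and -0.35.

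The spread of members between samples was close to that of other genes. Their SD over the 8 samples ran from 0.04 for Ccne2 to 0.25 for Ccna2, with a median of 0.13 against 0.12 over all genes. Ccna2, Cdk1, Prc1 and Mcm5 had SDs above those of 93.9%, 92.9%, 92.8% and 92.7% of all genes.

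Of 134 further cell cycle genes listed by function, 127 were measured, 62 higher and 65 lower, with a median log2 fold change of -0.0025. None passed in limma (smallest adjusted p = 0.997), and 7 had an unadjusted p under 0.05, beside 3.38% of all genes. These were Smc4, Cdkn2c and Cdt1, higher, and Rb1, Cdkn2a, Tfdp2 and Dbf4, lower. The last 2 were named after their values were seen. With the pair as a block, Dbf4 had an unadjusted p of 0.0711 in limma and the rest of these 7 stayed under 0.05. Dyrk1a (0.0474), Orc5 (0.0351) and Bub3 (0.0436), all lower, then had an unadjusted p under 0.05 in limma. They too were named after their values were seen. The smallest adjusted p was then 0.966. The share of all genes under 0.05 with the block is not given here, and 3.38% belongs to the main fit. Smc4, a condensin subunit, read 7.05, 6.88, 7.32 and 6.89 after GW9662 and 6.51, 6.86, 6.57 and 6.71 in vehicle. Every GW9662 sample was above every vehicle sample, and the difference was 0.37 ± 0.11 (SE). Averaging its 3 probe sets gave 0.21. Rb1, the retinoblastoma pocket protein, read 4.03, 3.99, 4.17 and 3.99 against 4.44, 4.16, 4.52 and 4.19, a difference of -0.28 ± 0.09 in a dim set. Averaging its 2 sets gave -0.13. Cdt1, which loads the MCM helicase, stood at 0.21 ± 0.08, and at 0.06 when its 3 sets were averaged. Of 18 measured genes of the E2F, pocket protein and DREAM group 13 were lower, with a median of -0.03. For replication genes 22 of 42 were higher, and for spindle, kinetochore and condensin genes 25 of 45.

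CDK inhibitors were the brake genes among them. Cdkn1a (p21) and Cdkn1b (p27), which hold CDK2 in check, had high signals. Cdkn1a read 10.75, 10.97, 11.14 and 11.24 after GW9662 and 10.96, 10.82, 11.39 and 10.69 in vehicle, with no order between the groups. It differed by 0.06 ± 0.15 (SE), a sign that turned to -0.03 without vehicle 4. Cdkn1b differed by -0.15 ± 0.11. Cdkn2a, which encodes p16 and p19ARF, read 4.00, 4.06, 4.18 and 4.10 against 4.22, 4.42, 4.26 and 4.26, so every GW9662 sample was lower, in a dim set. Its difference was -0.21 ± 0.07 (unadjusted p = 0.0126 and adjusted p = 0.997 in limma). Cdkn2c (p18) was at 0.29 ± 0.10, higher in 3 of 4 pairs. Cdkn1c, Cdkn2b, Cdkn2d and Cdkn3 were at -0.0075, 0.07, -0.04 and -0.07.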

How the data were processed

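Expression was measured by microarray in 8 samples, 4 per group, 1 array per animal, from RNA of 5000 sorted cells. The deposited values are log2 signals to 2 decimals for 45141 probe sets, made by the authors with RMA in the affy package, per the submitters' processing notes; no version is given in the sources used here. The log base was read from the range. Amplification over 21 cycles can change the relative signal of transcripts.

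Of the probe sets, 28898 named 1 gene through the platform annotation and the RefSeq gene table, 551 with several genes were set aside, and 15692 had no name here. The set with the highest mean stood for each of 17097 genes. GW9662 minus vehicle was tested, two-sided and without covariates, by lmFit and eBayes of limma 3.58.1 (R 4.3.3). P-values were adjusted by Benjamini-Hochberg across the 17097 genes, with 0.05 as the threshold. The script was checked on simulated data. Members and lists were chosen with earlier results of these data known. Per-sample values are given for 9 genes representing the roles, the 8 members of smallest p, the 4 of largest SD and the 4 of highest signal; of other pathway genes, the 5 of smallest p and the CDK inhibitors are named.

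Deviations from group means correlated at 0.203, 0.163, 0.114 and 0.165 between same-numbered samples across genes, and the design text has animals killed in pairs by day, so the numbers were read as pairs. A fit with the replicate block was run beside the main one. Other alternatives were trend and robust variances, dim genes left out, probe sets averaged per gene, a further quantile normalization, median centring, array weights, each sample left out and the pair numbered 4 left out. The p-values measure the spread between these animals.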

Additional observations from a re-analysis of the deposited data

Results flagged for a closer look

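In groups of 4 animals, 7 of 110 group readings had 1 sample far from the other 3 (a gap above Dixon's 95% critical value); chance marks about 1 in 20. Cdk1 read 5.84 in GW9662 3 and 5.18 to 5.23 in the other GW9662 samples. Ndc80 read 4.84 and Ube2c 6.66 in vehicle 4, with the other vehicle samples at 4.52 to 4.56 and 6.27 to 6.33. Rrm2 read 5.29 in vehicle 1, against 4.90 to 4.93. Below their groups, Cdc20 read 5.49 and Mybl2 4.51 in GW9662 4, against 5.74 to 5.79 and 4.71 to 4.74, and Rrm1 read 6.67 in GW9662 2, against 6.83 to 6.86.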

How the results depend on the processing

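No gene passed an adjusted p of 0.05 in limma under any alternative, nor 0.1 in the main fit; at an unadjusted p the main fit had 578. Members at an unadjusted p under 0.05 numbered 1 in the main fit, 0 with the replicate block, 0 among the brighter genes, 2 without the pair numbered 4, and 0 to 3 with 1 sample left out (0 without GW9662 1, GW9662 2 or vehicle 1, 3 without GW9662 4, 2 without vehicle 2 or vehicle 4). Shares of all genes in these alternative fits are not given here, so whether the members moved with all genes is not shown. Members higher numbered 11 of 16 among the brighter genes and 16 to 27 of 42 with 1 sample left out, lowest without GW9662 3. The spindle and cytokinesis median ran from -0.02 (without GW9662 3) to 0.0708 (without GW9662 4), and that of the anaphase-promoting complex genes was 0.07 without the pair numbered 4.

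The correlation of the S phase and mitotic means was 0.0943 without GW9662 3 and GW9662 4, an alternative chosen after seeing the data, and 0.831 with the replicate block. The median pairwise r among S phase members was -0.0167 with the replicate block, 0.14 among the brighter genes, 0.106 without GW9662 3 and GW9662 4, and 0.133 without GW9662 3 and vehicle 4. That among mitotic members was 0.0461 without GW9662 3 and vehicle 4, also chosen after seeing the data. The cause of these changes was not tested.

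Of 447 recomputed fold changes of the 29 named genes, 407 kept their sign and 40 turned, and 15 genes kept it under every alternative. Averaging probe sets gave -0.0063 for Mcm2 and -0.0292 for Top2a, and array weights gave -0.0171 for Top2a and 0.0134 for Cdkn1c. Without the pair numbered 4 the values were -0.04 for Top2a, -0.0233 for Pcna, -0.0167 for E2f1, -0.0333 for Mcm5 and Tyms, -0.103 for Cdkn1a, 0.0333 for Cdkn1c and 0.0267 for Cdkn3. With 1 sample left out, ranges that crossed 0 were -0.0467 to 0.06 for Top2a, -0.065 to 0.164 for Cdk1, -0.0883 to 0.035 for Ccnb2, -0.0392 to 0.0708 for Pcna, -0.04 to 0.04 for Mcm2, -0.0033 to 0.103 for E2f1, -0.0108 to 0.0625 for Foxm1, -0.0667 to 0.155 for Prc1, -0.0842 to 0.122 for Mcm5, -0.0508 to 0.142 for Tyms, -0.0317 to 0.202 for Cdkn1a, -0.0692 to 0.0842 for Cdkn1c, -0.0933 to 0.0267 for Cdkn2d and -0.193 to 0.06 for Cdkn3. With the replicate block the smallest adjusted p of a member was 0.966, and Mki67, at 0.0539 unadjusted, was the single member whose side of 0.05 changed. Signal over background limits the dimmest members, which have no detection call here.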
